A study of Mus musculus with 14 samples.

Results

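The messenger RNA of 7 genes, S100a4, S100a6, S100a10, S100a11, S100a13, Lgals1 and Lgals3, was followed in sorted regulatory T cells of the mouse spleen. They were chosen by gene name, as S100 and galectin genes linked to T cell activation, and all 7 were found among the 30284 genes measured and passed the filter on low counts that left 15775 genes to be tested. The knockout-labelled cells came from Tln1fl/flFoxp3cre/wt mice and the wild-type cells from Tln1wt/wtFoxp3cre/wt mice, all of strain C57/B6. Mice of both genotypes thus carried 1 Foxp3 cre allele, which drives Cre in Foxp3-expressing cells and lets the floxed Tln1 alleles be deleted there. Sorting took cells positive for Foxp3 and YFP, a library held RNA of 1 or 2 animals, and no ages were given. The data comprised 3 knockout-labelled units and 4 wild-type units, each the sum of 2 sequenced samples. Tln1 encodes talin-1, the adaptor that activates integrins, and the study asks what regulatory T cells express without it.

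S100 proteins are small calcium sensors with a pair of EF-hand loops that bind target proteins when calcium rises. In T cells several of them are known as genes of activated, effector and memory cells, and most lie in 1 cluster on mouse chromosome 3. Galectins are lectins that bind beta-galactoside sugars on cell surface glycoproteins. Galectin-1 (Lgals1) is known as a mediator made by activated and regulatory T cells, whereas galectin-3 (Lgals3) is abundant in macrophages and is induced in activated T cells.

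The galectin gene Lgals3 rose 5.83-fold in the knockout-labelled units, and it was the only 1 of the 7 genes to pass the test. The other 6, the 5 S100 genes and Lgals1, had overlapping values in both groups and fold differences of at most 1.31. Outside the 7 genes, the neutrophil S100 gene S100a9 and the annexin gene Anxa1, whose product binds S100A11, rose by larger factors. Summed markers of monocytes, macrophages and neutrophils were also higher in the same knockout-labelled units, as given below beside each result. So were summed markers of B cells, of dendritic cells, of CD8 T and NK cells and of erythroid cells and platelets.

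Positions are in the mouse build GRCm38. S100a13 (ENSMUSG00000042312) lies on chromosome 3 at 90514435 to 90524581, S100a4 (ENSMUSG00000001020) at 90603771 to 90606045 and S100a6 (ENSMUSG00000001025) at 90612882 to 90624181. Further along the same chromosome lie S100a11 (ENSMUSG00000027907) at 93520488 to 93526287 and S100a10 (ENSMUSG00000041959) at 93555080 to 93564643. Lgals1 (ENSMUSG00000068220) lies on chromosome 15 at 78926725 to 78930465, and Lgals3 (ENSMUSG00000050335) on chromosome 14 at 47367751 to 47386160. All 7 genes are protein-coding and on the plus strand. S100a4 and S100a6 are separated by 6837 bases and S100a11 and S100a10 by 28793 bases. S100a13 starts 43 bases from the start of S100a1, a gene of the minus strand.

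The 150 bases before the transcription start are shown for the 5 genes that have a promoter window in RefSeq (build GRCm38.p6, plus strand), because they show which of the motifs searched each gene holds. They are chr3:90603620-90603769 for S100a4, chr3:90612744-90612893 for S100a6, chr3:93520346-93520495 for S100a11, chr3:90514285-90514434 for S100a13 and chr14:47373710-47373859 for Lgals3. The RefSeq start can differ from the gene start given above. The Lgals3 stretch lies inside the gene span given above, and the stretches of S100a6 and S100a11 reach a few bases into theirs. Capitals mark matches on either strand to TATAAA, the core of a TATA box, to TGANTCA, a site form bound by AP-1 factors, to CCACCC, a form bound by Kruppel-like factors, and to GGGGCGGGG, a GC box.
S100a4: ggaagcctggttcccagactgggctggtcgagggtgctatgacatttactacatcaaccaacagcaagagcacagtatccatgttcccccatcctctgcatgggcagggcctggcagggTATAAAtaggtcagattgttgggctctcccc
S100a6: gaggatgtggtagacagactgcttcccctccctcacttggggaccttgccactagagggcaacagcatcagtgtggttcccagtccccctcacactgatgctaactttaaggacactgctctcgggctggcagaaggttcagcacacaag
S100a11: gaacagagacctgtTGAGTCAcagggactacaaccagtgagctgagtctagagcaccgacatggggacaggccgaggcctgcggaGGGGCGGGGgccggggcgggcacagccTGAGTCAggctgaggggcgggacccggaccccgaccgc
S100a13: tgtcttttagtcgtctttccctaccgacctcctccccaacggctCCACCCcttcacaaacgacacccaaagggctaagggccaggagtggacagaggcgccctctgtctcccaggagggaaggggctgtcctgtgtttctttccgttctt
Lgals3: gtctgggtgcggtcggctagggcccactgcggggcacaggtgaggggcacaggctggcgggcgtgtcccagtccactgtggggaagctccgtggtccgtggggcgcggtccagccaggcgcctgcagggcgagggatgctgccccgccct
Among these sequences TATAAA was found in S100a4, where it stands close to the start, and TGANTCA was found at 2 places in S100a11, which also holds 1 GC box. CCACCC was found once in S100a13. None of these 4 motifs was found in the stretches of S100a6 and Lgals3. Over the full windows of 250 bases before to 50 after the start, 13.6% of all 32851 RefSeq promoter windows hold TATAAA, 7.81% hold TGANTCA, 31.5% hold CCACCC and 11.4% hold GGGGCGGGG. In its full window S100a4 also holds 1 CCACCC, outside the printed stretch. The other counts of these 4 motifs in the 5 genes are the same in the full windows. TGACGTCA, the full site of CREB factors (1.79% of all windows), was in none of the 5 windows. CANNTG, the E-box (72.3% of all windows), was found at 2 places each in the windows of S100a6, S100a11 and Lgals3 and once in that of S100a13. These matches describe the letters and not binding.

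Depth was 38811489 to 56109143 estimated reads in the knockout-labelled units and 12851425 to 39214264 in the wild-type units. The totals of the targeted gene Tln1 were 788, 901 and 1014 CPM in the 3 knockout-labelled units and 634, 543, 847 and 649 CPM in the 4 wild-type units. Tln1 was thus not lower in the knockout-labelled units (edgeR log2 fold change 0.43 ± 0.18 SE, adjusted p = 0.126), so the directions below hold for the groups as labelled. Its total can include reads of exons outside the deleted stretch, so it does not check the deletion. CPM are counts scaled to a common library size after TMM normalization, and values are listed in unit order, and adjusted p-values come from edgeR's quasi-likelihood test over 15775 genes with a threshold of 0.05. In the markers that follow, ranges are of the knockout-labelled against the wild-type units. Over all tested genes, 7.07% rose, 6.52% fell and 14.1% had every knockout-labelled unit below every wild-type unit. Foxp3, which defines the sorted cells, was present in every unit, at 428 ± 76.1 CPM in the knockout-labelled and 419 ± 71.0 CPM in the wild-type units (SD, n = 3 and n = 4). Of 7 regulatory T cell markers, 0 rose and 3 fell (Cd3g, Il2ra and Ikzf2), and their summed level was 2378 to 3327 CPM against 3797 to 4663 CPM. Of 12 monocyte and macrophage markers 4 rose (Lyz2, Cd68, Itgam and Ly6c2), with summed levels of 638, 333 and 778 CPM in the 3 knockout-labelled units and 236, 94.3, 100.1 and 120.4 CPM in the 4 wild-type units. Ms4a6c, which did not pass and was lower in every knockout-labelled unit (52.2 to 67.8 CPM against 73.4 to 95.2 CPM), held much of the wild-type sums. Without it the other 11 markers summed to 271 to 726 CPM in the knockout-labelled and 20.9 to 141 CPM in the wild-type units, where unit 1 was again the highest and unit 2 the lowest. Of 11 neutrophil markers 10 rose, with summed levels of 272 to 1613 CPM against 13.1 to 39.4 CPM. Cxcr2, the marker that did not pass (edgeR adjusted p = 0.726), held 10.2 to 27.4 CPM of the wild-type sums, and the other 10 summed to 245 to 1597 CPM in the knockout-labelled and 2.98 to 16.5 CPM in the wild-type units. Of 10 B cell markers 8 rose, with summed levels of 183 to 390.2 CPM against 36.5 to 95.5 CPM, as did 3 of 8 dendritic cell markers and 4 of 7 markers of CD8 T and NK cells. Of 9 tested erythroid and platelet markers 0 passed, but 5 were higher in every knockout-labelled unit, beside 16.7% of all tested genes. The 11 markers of that list summed to 275, 93.4 and 2971 CPM in the 3 knockout-labelled units, against 33.5 to 70.8 CPM. None of the monocyte, macrophage and neutrophil markers was at 0 in all units of a group, although Itgam had 0 reads in wild-type unit 2, and Elane, Prtn3, Ctsg, Ngp, Camp, Lcn2 and Retnlg had 0 in 1 to 3 wild-type units each. In sorted bulk samples a larger share of another cell type and more RNA per cell cannot be told apart.

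Levels between genes were compared in TPM, which is scaled by transcript length. S100a10 had the highest level, at 222 ± 28.5 TPM in the knockout-labelled and 280 ± 26.3 TPM in the wild-type units (SD, n = 3 and n = 4 here and below). Its product, p11, forms a tetramer with annexin A2 at the plasma membrane. It was above 97.3% of the tested genes in mean TPM. S100a4, which codes for a protein that binds non-muscle myosin, followed by mean TPM over the 7 units. It was at 94.9 ± 27.0 TPM in the knockout-labelled and 128 ± 26.4 TPM in the wild-type units. This place depends on its transcript of 336 bases, with 26.1% of its reads but 13.1% to 60.7% of its TPM in a unit. Lgals1 was at 108 ± 16.1 TPM in the knockout-labelled and 86.3 ± 19.1 TPM in the wild-type units. S100a11, whose product binds annexin A1, was at 100.1 ± 19.99 TPM in the knockout-labelled and 84.3 ± 23.4 TPM in the wild-type units. The order of S100a4, Lgals1 and S100a11 differed between units: S100a4 was above Lgals1 in 1 of 3 knockout-labelled and 3 of 4 wild-type units, and Lgals1 was above S100a11 in 3 of 3 knockout-labelled and 2 of 4 wild-type units. S100a13, known for helping proteins such as FGF1 and interleukin 1 alpha to leave cells without a signal peptide, was at 36.8 ± 8.25 TPM in the knockout-labelled and 42.3 ± 1.90 TPM in the wild-type units. S100a6, which codes for calcyclin, was at 29.2 ± 7.23 TPM in the knockout-labelled and 30.8 ± 6.76 TPM in the wild-type units, below S100a13 in 6 of 7 units. Lgals3 was lowest in all 7 units, at 15.6 ± 1.88 TPM in the knockout-labelled and 3.19 ± 2.00 TPM in the wild-type units. By mean TPM over the 7 units it stood above 48.0% of the tested genes, so its level was near the middle of all tested genes while the 6 others were above 75.8% or more of them.

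**Figure D1:**
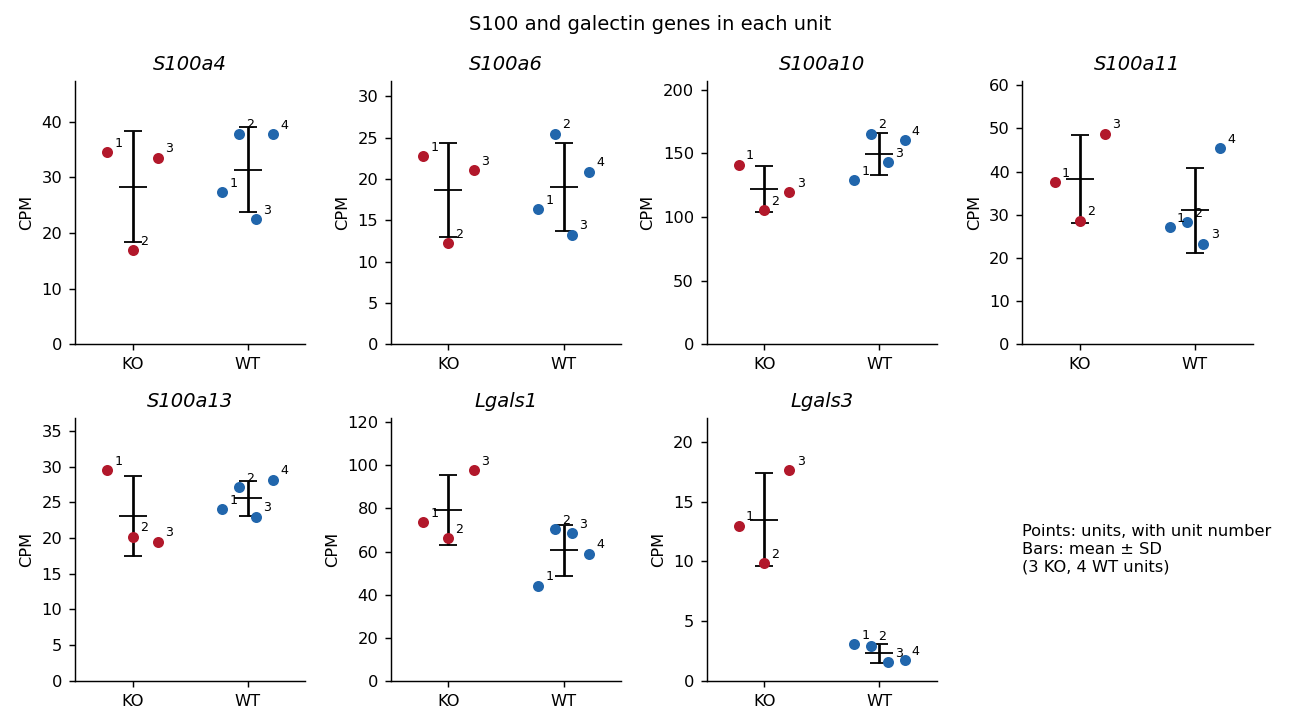
CPM of each of the 7 genes in the 3 knockout-labelled (KO, red) and 4 wild-type (WT, blue) units; points carry the unit number, bars are mean ± SD. The groups are apart in the Lgals3 panel, with 9.88 to 17.6 CPM in KO and 1.55 to 3.07 CPM in WT units, and overlap in the other 6.

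Lgals3 was measured at 12.99, 9.88 and 17.6 CPM in the 3 knockout-labelled units, against 3.07, 2.93, 1.55 and 1.75 CPM in the 4 wild-type units. Every knockout-labelled unit was above every wild-type unit, and unit 2 was the lowest of the knockout-labelled ones. These values rest on 587, 387 and 995 reads in the knockout-labelled and 39, 60, 62 and 23 reads in the wild-type units. The log2 fold change was 2.54 ± 0.34 (SE), with an edgeR adjusted p of 0.00252. This made 1 of 7 genes higher, and 0 of 7 lower, beside 7.07% and 6.52% of all tested genes. It also made 1 of 7 with all knockout-labelled units on top, beside 16.7% of all tested genes. The median log2 fold change of the 7 genes was -0.02, beside 0.06 for all genes tested. Lgals3 passed in each of the 7 fits with 1 unit removed (log2 fold change 2.31 to 2.72, edgeR adjusted p 0.00259 to 0.0105).

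Galectin-3 is also a macrophage product, and the knockout-labelled units had more monocyte and macrophage transcripts. In the knockout-labelled units, the CPM order of Lgals3 (unit 3, then 1, then 2) was that of the summed monocyte and macrophage markers. Lgals1, S100a11 and the read depth had this order too. In TPM the order of Lgals3 was another, at 13.7, 15.5 and 17.5 in knockout-labelled units 1, 2 and 3. A transcript of 368 bases with 3.06% of the knockout-labelled reads made this change, at 1.08, 5.82 and 0.590 TPM. The main transcript of 999 bases was at 11.1, 7.72 and 16.1 TPM, in the CPM order. Whether the markers account for Lgals3 was not tested. In the wild-type units, unit 1 had the highest marker sum and the highest Lgals3 (236 and 3.07 CPM), and units 1, 4 and 3 ran in the same order in both. Unit 2 alone departed from it, with the lowest marker sum (94.3 CPM) and 2.93 CPM of Lgals3. Lyz2, the macrophage lysozyme gene, was at 155.6, 87.9 and 179.8 CPM in the 3 knockout-labelled units and at 19.5, 1.17, 4.195 and 6.63 CPM in the 4 wild-type units. With the mean level of B cell and of monocyte and macrophage markers as a covariate, the log2 fold change of Lgals3 was 1.92 and its edgeR adjusted p 0.309. That covariate separated the groups, at 1.46 to 2.08 (log2, centred) in the knockout-labelled and -2.09 to 0.05 in the wild-type units, so genotype and these transcripts cannot be told apart in that fit.

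**Figure D2:**
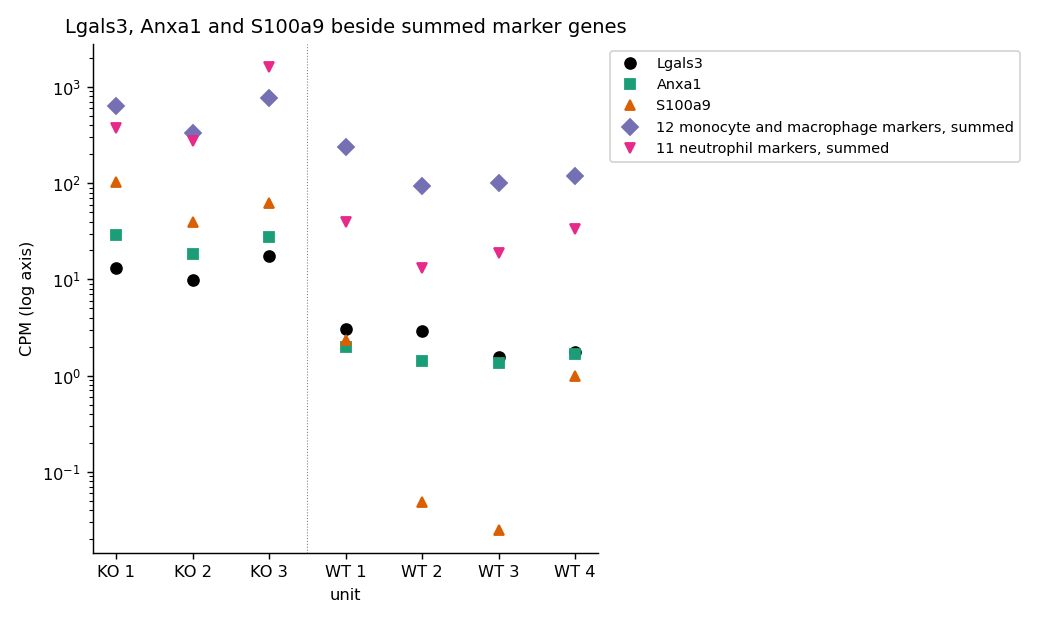
CPM on a log axis of Lgals3, Anxa1 and S100a9 and the summed CPM of 12 monocyte and macrophage and 11 neutrophil markers, in KO units 1 to 3 (left) and WT units 1 to 4 (right). All 5 values are higher in each KO unit than in any WT unit; S100a9 is at 0.0488 and 0.0250 CPM in WT units 2 and 3, whereas Lgals3 is between 1.55 and 3.07 CPM.

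Lgals1, the other galectin of the set, was at 73.7, 66.3 and 97.6 CPM in the 3 knockout-labelled units and at 44.1, 70.4, 68.5 and 59.0 CPM in the 4 wild-type units. Knockout-labelled unit 2 was below wild-type units 2 and 3, and so the groups overlapped. The test was not passed (edgeR adjusted p = 0.182, log2 fold change 0.39 ± 0.19 SE). The log2 ratio of Lgals3 to Lgals1 within a unit, which no library scaling can move, was -2.50, -2.75 and -2.47 in the 3 knockout-labelled units and -3.85, -4.59, -5.47 and -5.07 in the 4 wild-type units. The means differed by 2.17 (-2.57 ± 0.15 against -4.74 ± 0.70, SD), with no overlap. An exact two-sided permutation test gave p = 0.0571, which is the smallest p that 3 against 4 units allow. Lgals3 thus stood closer to Lgals1 in each knockout-labelled unit than in any wild-type unit.

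None of the 5 S100 genes of the set passed the test. S100a4 was at 34.6, 16.9 and 33.5 CPM in the 3 knockout-labelled units, against 27.4, 37.9, 22.5 and 37.8 CPM in the 4 wild-type units (log2 fold change -0.15 ± 0.28 SE, edgeR adjusted p = 0.755). S100a6 was at 22.8, 12.2 and 21.1 CPM in the knockout-labelled and 16.4, 25.5, 13.3 and 20.9 CPM in the wild-type units (log2 fold change -0.02 ± 0.28 SE, edgeR adjusted p = 0.966). In both genes knockout-labelled unit 2 was the lowest of the 7 units, and the other 2 knockout-labelled units lay inside the wild-type range. S100a10 was at 141, 106 and 119.7 CPM in the knockout-labelled and 129, 166, 143 and 160.2 CPM in the wild-type units (log2 fold change -0.29 ± 0.14 SE, edgeR adjusted p = 0.190). It passed as lower in 1 alternative fit, with an offset for GC content and transcript length (log2 fold change -0.53, edgeR adjusted p = 0.0284). S100a11 was at 37.5, 28.6 and 48.8 CPM in the knockout-labelled and 27.1, 28.3, 23.3 and 45.5 CPM in the wild-type units. Its log2 fold change was 0.31 ± 0.25 SE (edgeR adjusted p = 0.439), with wild-type unit 4 above knockout-labelled units 1 and 2. S100a13 was at 29.5, 20.2 and 19.5 CPM in the knockout-labelled and 24.1, 27.1, 23.0 and 28.2 CPM in the wild-type units, with a log2 fold change of -0.15 ± 0.19 SE and an edgeR adjusted p of 0.618. Knockout-labelled unit 1 was the highest of the 7 units for S100a13 while the other 2 knockout-labelled units were the lowest. The log2 ratio of S100a4 to S100a10 averaged -2.17 ± 0.42 in the knockout-labelled and -2.28 ± 0.27 in the wild-type units (SD, n = 3 and n = 4), a difference of 0.11 (exact two-sided permutation p = 0.629) that was -0.12 in TPM, -0.06 without knockout-labelled unit 3 and -0.02 without wild-type unit 3.

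**Figure D3:**
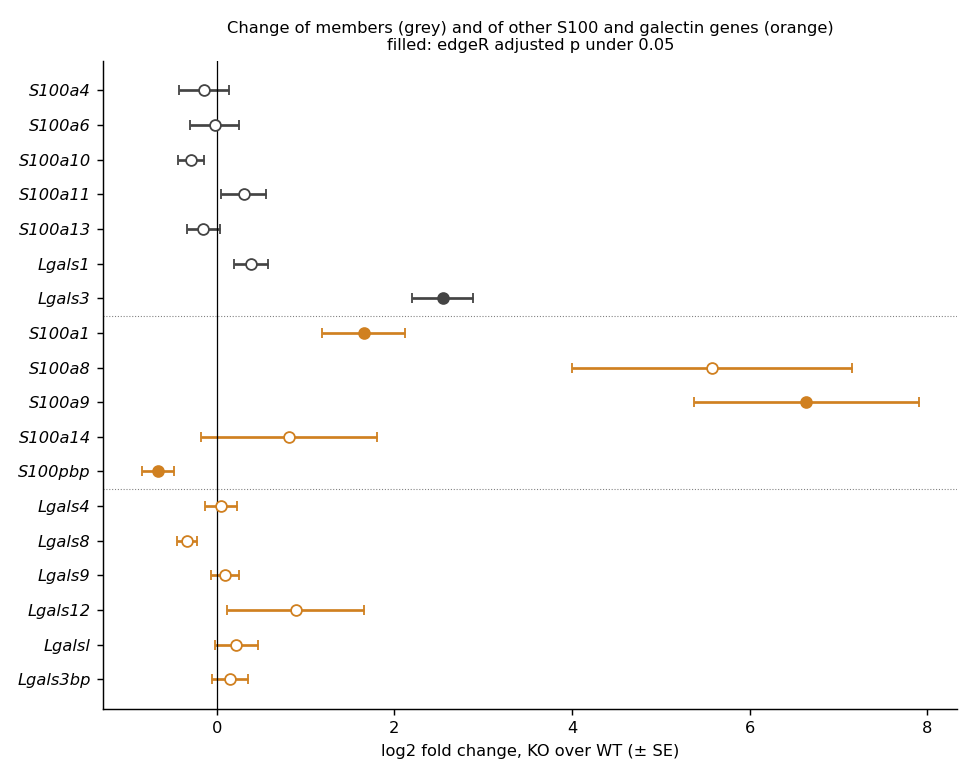
Log2 fold change, KO over WT, with its SE for the 7 genes (grey), then for the other tested S100 genes and their binding protein and for the other tested galectins (orange); filled circles passed the edgeR test. Among the galectins only Lgals3 is filled, at 2.54, and S100a1, S100a9 and S100pbp are the other filled circles.

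Most of the remaining S100 genes had few reads in these cells. Of 12 on the list, 5 had enough reads to be tested, and 2 rose, 1 fell and 2 did not pass. Of all tested genes, 7.07% rose and 6.52% fell. S100a9, whose product forms calprotectin with that of S100a8 in neutrophils, was at 104, 39.3 and 62.2 CPM in the 3 knockout-labelled units. In the 4 wild-type units it was at 2.36, 0.0488, 0.0250 and 0.990 CPM, from 30, 1, 1 and 13 reads. Its log2 fold change was 6.64 ± 1.26 SE (edgeR adjusted p = 0.0307), and the call ended without knockout-labelled unit 1, 2 or 3 or without wild-type unit 2 or 4 (edgeR adjusted p 0.0632 to 0.0884). S100a8 was at 61.0, 20.7 and 32.3 CPM in the knockout-labelled units and at 2.75, 0, 0 and 0.914 CPM in the wild-type units, where 0 reads allow up to 0.147 CPM in unit 2 and 0.0749 CPM in unit 3 by counting error alone. It did not pass in edgeR (adjusted p = 0.0734). The summed neutrophil markers were also higher in the knockout-labelled units, at 378, 272 and 1613 CPM. Their sum was highest in unit 3, where Mpo alone held 930 CPM. S100a9 and S100a8 were highest in unit 1, as were the markers Ngp, Ltf, Camp and Lcn2. The markers Elane, Prtn3, Ctsg, Retnlg and Csf3r were highest in unit 3 like Mpo, and Cxcr2 in unit 2. Under the marker covariate the log2 fold changes were 0.51 for S100a9 and -1.46 for S100a8 (edgeR adjusted p = 0.854 and 0.676). That covariate holds B cell, monocyte and macrophage markers and none of the neutrophil markers. It separated the groups, so genotype and marker transcripts cannot be told apart in that fit. S100a1, best known from heart and skeletal muscle, was low, at 2.15, 1.30 and 2.62 CPM in the knockout-labelled and 0.944, 0.488, 0.499 and 0.686 CPM in the wild-type units (log2 fold change 1.65 ± 0.47 SE, edgeR adjusted p = 0.0441). It rose while its head-to-head neighbour S100a13 did not pass, and its call ended in 6 of the 7 fits with 1 unit removed, all but the fit without wild-type unit 1 (edgeR adjusted p 0.0565 to 0.167 in those 6). S100pbp, which codes for a nuclear protein that binds S100P in human cells, fell by 0.66 on the log2 scale (79.5 ± 20.02 against 126 ± 11.6 CPM, edgeR adjusted p = 0.0377), a call that ended without knockout-labelled unit 2 or 3 or wild-type unit 1, 2 or 4 (edgeR adjusted p 0.0523 to 0.0981). With the GC and length offset, the calls of S100a1 and S100pbp ended as well (log2 fold changes 1.35 and -0.33, edgeR adjusted p = 0.0907 and 0.139). S100a14 was below 1 CPM in every unit, and S100a3, S100a5, S100a7a, S100a16, S100b, S100g and S100z had at most 23 reads in either group.

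No other galectin passed the test. Of 9 on the list, 6 were tested, with a median log2 fold change of 0.12. Lgals9, which codes for a tandem-repeat galectin known as a ligand of TIM-3, was the most abundant, at 131 ± 15.7 CPM in the knockout-labelled and 122.6 ± 21.4 CPM in the wild-type units (edgeR adjusted p = 0.725). Lgals8, another tandem-repeat galectin, was at 80.6, 78.8 and 78.5 CPM in the knockout-labelled and 103, 101.5, 93.6 and 102 CPM in the wild-type units. All its knockout-labelled units were below all wild-type units, as in 14.1% of all tested genes. With a log2 fold change of -0.34 ± 0.11 SE it missed the threshold (edgeR adjusted p = 0.0654). Lgals3bp, which codes for a secreted glycoprotein that binds galectin-3, was at 84.4 ± 17.9 CPM in the knockout-labelled and 76.0 ± 18.3 CPM in the wild-type units (edgeR adjusted p = 0.645). Lgals4 and Lgalsl had log2 fold changes of 0.05 ± 0.18 and 0.22 ± 0.24 SE, and Lgals12 was below 1 CPM. Lgals2 had 0 reads and Lgals7 103 reads in all units together, and Lgals6 was not analysed here.

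Among the partners of S100 proteins, Anxa1 had the largest log2 fold change of the 17 tested. Annexin A1 is a calcium-dependent membrane-binding protein with anti-inflammatory roles. Anxa1 was at 29.1, 18.2 and 27.8 CPM in the 3 knockout-labelled units, against 1.97, 1.42, 1.35 and 1.68 CPM in the 4 wild-type units. It rose 15.7-fold (log2 fold change 3.98 ± 0.27 SE, edgeR adjusted p = 0.000112) and passed in each of the 7 fits with 1 unit removed. With the marker covariate, which separated the groups, its log2 fold change was 3.05 and its edgeR adjusted p 0.144. The part of other cells in its rise was not tested. The 17 partner genes on the list, all tested, had a median log2 fold change of 0.23, beside 0.06 over all genes. Of these 17, 2 rose and 0 fell, beside 7.07% and 6.52% of all tested genes. The other was Myh10, a non-muscle myosin heavy chain gene, at 18.6, 17.9 and 119.6 CPM in the 3 knockout-labelled units and 3.12 to 6.37 CPM in the wild-type units (edgeR adjusted p = 0.0463). Knockout-labelled unit 3 held most of that mean, and the log2 fold change was 2.02 without it and 3.53 with it. The Myh10 call ended without wild-type unit 1, 2, 3 or 4 (edgeR adjusted p 0.0883 to 0.128) and with the GC and length offset (edgeR adjusted p = 0.0559). Anxa2, the partner of S100a10, was at 50.9, 35.01 and 53.0 CPM in the knockout-labelled and 22.9, 36.1, 30.9 and 29.7 CPM in the wild-type units (log2 fold change 0.63 ± 0.19 SE, edgeR adjusted p = 0.0536). Thus Anxa2 and S100a10 had log2 fold changes of opposite sign, neither past the threshold. Ager, the gene of the receptor RAGE that binds several S100 proteins, was higher in all knockout-labelled units (22.2, 35.4 and 18.8 CPM against 13.9 to 16.6 CPM), with an edgeR adjusted p of 0.0514. Of all tested genes, 16.7% were higher in every knockout-labelled unit. Fgf1, whose release uses S100A13, was at 0.612 to 1.59 CPM in the knockout-labelled units and at 0 to 0.315 CPM, from 6 reads in all, in the wild-type units (edgeR adjusted p = 0.0527).

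Of 18 genes of galectin sugar ligands and counter-receptors, 1 rose and 0 fell, beside 7.07% and 6.52% of all tested genes. Gcnt1, which codes for the enzyme that branches core 2 O-glycans, was at 19.2, 15.7 and 17.9 CPM in the knockout-labelled and 12.7, 4.98, 4.60 and 7.24 CPM in the wild-type units (log2 fold change 1.26 ± 0.34 SE, edgeR adjusted p = 0.0370). The call ended in 6 of the 7 fits with 1 unit removed, all but the fit without wild-type unit 1 (edgeR adjusted p 0.0678 to 0.0958 in those 6), and wild-type unit 1, the highest of its group, also had the highest monocyte and macrophage marker sum there. Among the knockout-labelled units, Gcnt1 was highest in unit 1 and that marker sum in unit 3. With the marker covariate the log2 fold change of Gcnt1 was -0.63 (edgeR adjusted p = 0.499). That covariate separated the groups, so genotype and marker transcripts cannot be told apart in that fit. The cause of the rise was not tested. Mgat5, whose product makes the N-glycan branches that galectin-3 prefers, was at 84.1 ± 11.2 CPM in the knockout-labelled and 84.0 ± 14.6 CPM in the wild-type units (edgeR adjusted p = 0.994). Lag3, an inhibitory receptor gene whose product binds galectin-3, was at 12.3, 11.05 and 13.96 CPM in the knockout-labelled and 22.4, 17.2, 20.03 and 17.7 CPM in the wild-type units, without passing (edgeR adjusted p = 0.0511). Cd3e and Man2a1, a Golgi mannosidase gene, were also lower in every knockout-labelled unit without passing (edgeR adjusted p = 0.0532 and 0.0623). Of the 18 genes, 5 were lower in every knockout-labelled unit than in any wild-type unit, beside 14.1% of all tested genes. In the other direction 1 was higher in every knockout-labelled unit, beside 16.7% of all tested genes.

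Of 18 genes often expressed together with S100a4 in effector memory T cells, 2 passed the test, beside 13.6% of all tested genes. In this list 1 rose (Anxa1, which is also on the partner list) and 1 fell, with a median log2 fold change of 0.16 beside 0.06 for all genes. The gene that fell was Glrx, which codes for glutaredoxin, at 23.7, 18.7 and 31.4 CPM in the knockout-labelled and 34.5, 48.7, 41.9 and 37.6 CPM in the wild-type units (log2 fold change -0.72 ± 0.20 SE, edgeR adjusted p = 0.0383). This call held in 2 of the 7 fits with 1 unit removed, those without knockout-labelled unit 3 or wild-type unit 1, and in the other 5 the edgeR adjusted p was 0.0673 to 0.106. The GC and length offset also ended it (log2 fold change -0.51, edgeR adjusted p = 0.143). Cd44, the hyaluronan receptor of antigen-experienced T cells, averaged 133 ± 20.5 CPM in the knockout-labelled and 118 ± 12.8 CPM in the wild-type units (edgeR adjusted p = 0.458). Vim, which codes for vimentin, averaged 294 ± 63.3 CPM in the knockout-labelled and 318 ± 32.8 CPM in the wild-type units (edgeR adjusted p = 0.673). The beta 1 integrin gene Itgb1 averaged 197 ± 34.6 CPM in the knockout-labelled and 288 ± 41.1 CPM in the wild-type units (edgeR adjusted p = 0.0556).

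**Figure D4:**
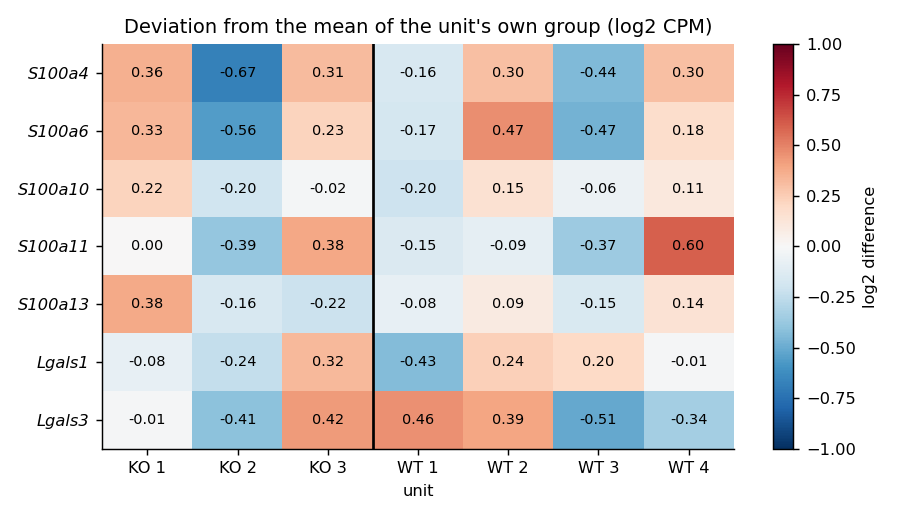
Difference of each unit from the mean of its own group, in log2 CPM, for the 7 genes (rows) in KO units 1 to 3 and WT units 1 to 4 (columns); red is above and blue below the group mean. S100a4 and S100a6 share their sign in every unit, and KO unit 2 is below its group mean for all 7 genes.

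Within the groups, S100a4 and S100a6 varied together. Their deviations from the group means had the same sign in all 7 units, reaching -0.67 and -0.56 (log2) in knockout-labelled unit 2, with a Pearson r of 0.970 over the 7 units. This correlation and those that follow share the libraries and their scaling and are given as a description. Over the 21 pairs of the 7 genes r was between -0.105 and 0.970, with a median of 0.490. S100a10 was close to S100a6 (r = 0.822) and to S100a13 (r = 0.811), while Lgals3 had r between -0.0117 and 0.588 with the 6 others. The genes most like each of the 7, out of 8637 named protein-coding genes with a mean of at least 10 CPM, were found by the same measure. For S100a4 they were Ndufb3 (r = 0.994), Galnt1 and Cox5a, and for S100a6 Cox5a (r = 0.993), Eif4e and Rad21. For S100a10 they were the ribosomal protein genes Rpl24 (r = 0.992) and Rpl26 and the telomere gene Pot1a. S100a11 was followed most closely by Hspa14 (r = 0.998), Rsu1 and Sec61b, S100a13 by Cd9 (r = 0.998), Rpl22 and Zfp953, and Lgals1 by Tprn (r = 0.994), Herpud1 and Pef1. Lgals3 had the lowest top value of the 7, with Nudcd1 (r = 0.969), Tmem39a and Spire1.

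Reads of S100a11 were divided between the gene and a sequence copy. Of the 31-base words of S100a11, 48.9% occur in another gene, mostly in the pseudogene Gm12854, which held 3909 reads beside 8023 of S100a11. Gm12854 was at 16.1, 16.3 and 12.6 CPM in the 3 knockout-labelled units and at 19.6, 24.1, 17.2 and 30.6 CPM in the 4 wild-type units (log2 fold change -0.61 ± 0.23 SE, edgeR adjusted p = 0.0960). The 2 together were at 53.3 ± 8.25 CPM in the knockout-labelled and 53.9 ± 15.6 CPM in the wild-type units (log2 fold change -0.02, edgeR adjusted p = 0.969). The positive difference of S100a11 alone was therefore absent from the sum, and its value is uncertain. S100a4 shares 49.2% of its words with 1 overlapping gene, Gm42674, which held 64.4 reads beside 6639. The other 5 genes share 0 words.

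**Figure D5:**
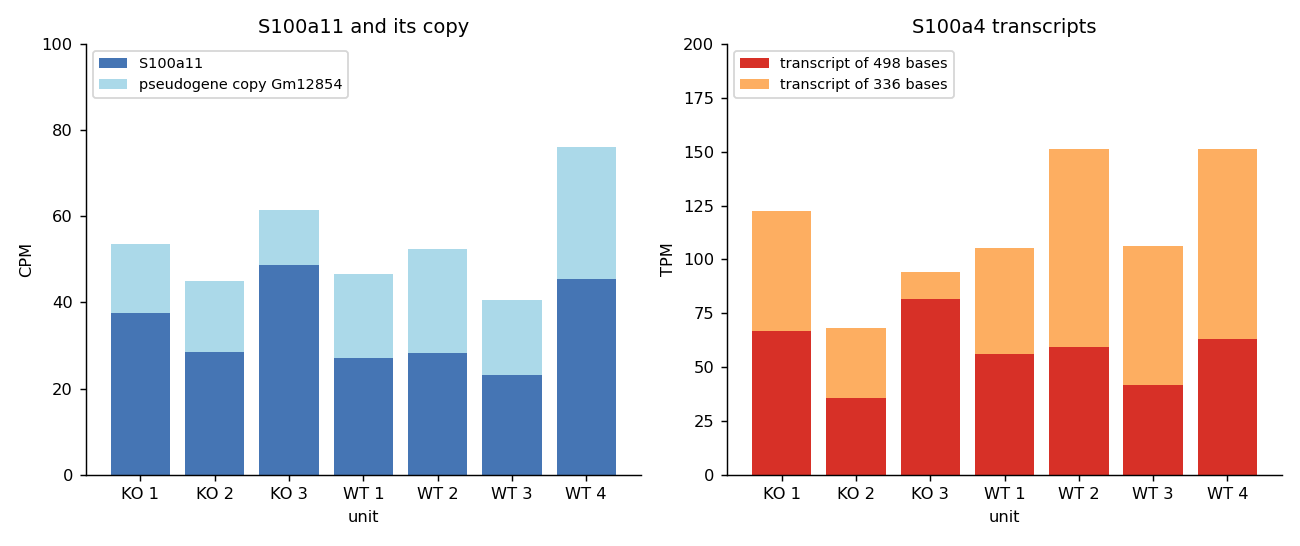
Left, CPM of S100a11 and of its pseudogene copy Gm12854, stacked, in KO units 1 to 3 and WT units 1 to 4; right, TPM of the transcripts of S100a4, stacked. The copy is 12.6 to 16.3 CPM in KO and 17.2 to 30.6 CPM in WT units, and the S100a4 transcript of 336 bases is lowest in KO unit 3, at 12.3 TPM.

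Transcripts were described without a test. S100a4 has a transcript of 498 bases and one of 336 bases (ENSMUST00000142476). The shorter made up 45.3%, 47.7% and 13.1% of the gene's TPM in the 3 knockout-labelled units and 46.7%, 60.7%, 60.5% and 58.3% in the 4 wild-type units, with knockout-labelled unit 3 far below the rest. S100a10 was carried by its transcript of 685 bases, with 89.9% of its reads. The main Lgals3 transcript, ENSMUST00000150290 with 999 bases, was at 11.1, 7.72 and 16.1 TPM in the knockout-labelled and 2.55, 2.93, 1.83 and 1.75 TPM in the wild-type units. A second Lgals3 transcript of 1062 bases, ENSMUST00000146468, was at 1.44, 2.00 and 0.610 TPM in the knockout-labelled units and was listed at 0 in all wild-type units. A further one of 368 bases, ENSMUST00000144794, was at 1.08, 5.82 and 0.590 TPM in the knockout-labelled and 3.54, 0, 0 and 0.149 TPM in the wild-type units. In the gene's TPM it placed wild-type unit 1 above the other wild-type units and knockout-labelled unit 2 above knockout-labelled unit 1. S100a6, S100a11, S100a13 and Lgals1 had 1 transcript each.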

How the data were processed

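Messenger RNA of sorted splenic regulatory T cells was measured in 14 sequenced samples. The authors deposited raw expected counts for each transcript, and TPM values, scaled by effective length, stand beside them in the deposited tables; both come from kallisto run against GRCm38, per the submitters' processing notes. Neither a kallisto version nor an annotation release is stated: both are not given in the sources used here. Length and effective length, the other columns, named so per the file headers, were the same in all files. Libraries were non-stranded, per the labels' protocols.

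Counts were summed per gene (GENCODE M21, 30284 genes) and over the 2 samples of a unit, since the title's first number was taken as the unit, and rounded; 2079 of 88198 transcripts had no gene (1.17% to 1.28% of reads) and were left out. The 2 samples of a unit differed by a chi-square per degree of freedom of 1.44 to 1.90 over genes. Which animals stand behind a number is not stated, so the p-values reflect only how far these units spread, which may be partly technical. Counting intervals and limits cover counting error only.

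The main test was edgeR 4.0.16 in R 4.3.3 (TMM, filterByExpr, robust quasi-likelihood fit, group only, Benjamini-Hochberg over 15775 genes, threshold 0.05). SE were derived from the F statistic. It was tested on simulated counts of 15411 genes for this comparison, where it called 28.9% of true 2-fold and 67.3% of true 4-fold changes, with 6% of 100 calls on unchanged genes. The simulation set 100 changed genes per fold, a smaller share than the 13.6% that passed in the data, so these rates may not carry over. DESeq2 1.42.0, limma 3.58.1 (voom), other scalings and filters, offsets, a marker covariate, a replicate block and leaving out each unit were alternatives; scipy 1.17.1 gave exact permutation tests. The GC offset was a spline trend per unit, centred at its median over genes. Sequences are from RefSeq. Words of 31 bases were compared on both strands, and adding the reads of S100a11 and its copy, and marker sums without Ms4a6c or Cxcr2, were chosen after seeing the data.

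The genes and lists were chosen with earlier results of these data known. Named were the 7 genes, up to 4 genes of each list with the smallest adjusted p, any list gene past the threshold, and for each of the 7 the 3 genes with the most similar deviations; others (Tln1, Foxp3, Lyz2, Mgat5, Vim, Cd44, Gm12854 and marker and low-count genes) were named after their values were seen.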

Additional observations from a re-analysis of the deposited data

Results flagged for a closer look

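Among 31 sets of 4 wild-type values examined, 1 had a unit far from the others, and chance alone gives about 1 such set in 20. Itgb1, the beta 1 integrin gene on the effector memory list, was at 226 CPM in wild-type unit 3, against 301 to 313 CPM in the other 3 wild-type units. The knockout-labelled units were at 211, 157 and 222 CPM. Without wild-type unit 3, Itgb1 passed the edgeR test as lower (log2 fold change -0.65, adjusted p = 0.0348), against an adjusted p of 0.0556 with all units. It did not pass without knockout-labelled unit 2 (log2 fold change -0.41, edgeR adjusted p = 0.157), and with the GC and length offset its log2 fold change was -0.19 (edgeR adjusted p = 0.449). No value of the 7 genes themselves stood apart in this way.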

How the results depend on the processing

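Over all genes, 2144 passed in edgeR, and the count was 3582 with DESeq2, 11 with the marker covariate and 758 to 1905 when 1 unit was left out (1131 without knockout-labelled unit 2, 977 without unit 3, 1122 without wild-type unit 2 and 758 without unit 4). The share that was higher, 52.1%, was 68.1% with an offset for GC content and length. Median log2 fold changes ran from -0.52 in genes of the lowest GC content to 0.37 in those of the highest, and this offset ended the calls of S100a1, S100pbp, Myh10 and Glrx. Of the 7 genes, 1 passed, and 1 passed in each fit without 1 unit. With the GC and length offset 2 passed, Lgals3 as higher and S100a10 as lower; 0 passed with the covariate, with the block and that offset together, and with a mean of at least 10 CPM required, a filter that removes Lgals3. The replicate block gave 612 genes and kept Lgals3 (edgeR adjusted p = 0.0369), and with the GC and length offset it gave 268 genes and an adjusted p of 0.0711 for Lgals3. Deviations of same-numbered units had r of 0.0288, -0.107 and -0.0563, beside -0.178 to 0.168 for differently numbered units. So few units, centred within their groups, cannot decide whether the numbers pair them. The log2 fold change of Gcnt1 was -0.63 with the covariate, and the difference in the S100a4 to S100a10 ratio was -0.12 in TPM and -0.058 to 0.35 when 1 unit was left out. The difference in the Lgals3 to Lgals1 ratio kept its sign, and its p could not pass 0.05 in this design. S100a6 had the other sign in 8 of 21 alternatives, S100a11 in 2 of 22 and S100a4 in 1 of 21. The cause of these changes was not tested. Between scalings and offsets the median of all genes moved by -0.04 to 0.03 (log2). Wild-type reads limit Lgals3, at 23 to 62 a unit.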
